A study of Mus musculus with 11 samples.

Results

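The comparison described here is wounded against wounded: the 2 RNA-seq libraries of wound-margin keratinocytes labelled Grhl3 knockout against the 2 labelled WT, 4 of the 7 RNA-seq libraries and 4 of the 11 samples of the series. The members were taken from the genotype and treatment labels alone, and the genes described are those that place both knockout libraries on 1 side of both WT libraries. Of 24421 genes listed in the count tables, 14045 had enough counts to be tested.

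The study asked what the transcription factor GRHL3 does in keratinocytes at the front of a healing skin wound, and it measured RNA and open chromatin with and without wounding. Both groups were C57BL/6 mice by their labels (C57BL/6J in the methods of the study) aged 8 weeks, collected on day 3 after punch wounds of 4 mm. The methods of the study name males and females, without the sex of each library. The knockout mice (cKO below) lost Grhl3 in the Krt14-Cre lineage, which covers basal keratinocytes and their descendants, hair follicles included, and the controls (WT below) were described as littermates that carry Krt14-Cre. Cells from the 1 mm of skin around the wound were sorted for CD49f, the integrin alpha-6 chain, and against CD45, CD31 and TER119, so each group is a sorted keratinocyte population. Whether each library came from 1 mouse or from pooled mice is not stated, so the p-values given here measure only the spread between libraries.

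GRHL3 belongs to the grainyhead-like family, whose members bind DNA as dimers and control epidermal barrier formation, neural tube closure and epithelial wound repair. At a wound margin, basal keratinocytes loosen their junctions, switch to wound keratins, lay down laminin and crawl over the wound bed. Away from wounds, Krt1 and Krt10 come on as cells leave the basal layer and begin to build the cornified barrier. The genes below are ordered by those roles: differentiation and junctions first, then cytoskeleton and adhesion, signals, immune genes, and growth and protein synthesis.

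In outline, the cKO libraries held more RNA of early differentiation keratins, of cytosolic ribosomal proteins and of several interleukin-1 family genes, and less RNA of contractile actomyosin genes, several integrins and many interferon-stimulated genes. Cell cycle genes and endoplasmic reticulum chaperones were lower by small amounts, with 2 genes at P under 0.05 among them. The depth on genes was 16653948 and 15418631 counts in WT replicates 1 and 2, and 15223569 and 14279568 in cKO replicates 1 and 2. Levels are given as CPM, counts relative to the library's total after trimmed-mean scaling, always in the order replicate 1, replicate 2, and differences as log2 of cKO over WT with the standard error (SE) of the fit, n = 2 libraries a group. These are bulk samples, so fewer cells of a type and less RNA per cell cannot be told apart.

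Both cKO libraries lay above both WT libraries for 2152 of the 14045 genes tested (15.3%) and below both for 2129 (15.2%), and every count of separated genes in a list is to be read against these shares. With a gap of at least 1.5-fold between the nearest libraries, 340 genes (2.42%) were higher and 332 (2.36%) lower. At an unadjusted P under 0.05 in edgeR's quasi-likelihood test, the threshold the study used, there were 567 genes (4.04%), 275 of them higher in cKO (1.96%) and 292 lower (2.08%), fewer than the 702.25 that are 5% of the genes tested. No gene reached an adjusted p under 0.05 in that test (0.0%), and the smallest was adjusted p = 0.0729 for Cald1. Of the 275 genes, 265 were also separated between the groups, as were 259 of the 292. DESeq2 gave 3 genes at an adjusted p under 0.05 (Cald1, Krt10 and Prss22), and the likelihood ratio and exact tests of edgeR gave 1 each, Cald1. Without an expression filter 51 genes passed it, without WT replicate 2 there were 24 and without WT replicate 1 there were 8. Since no gene passed the adjusted threshold in the quasi-likelihood test of all libraries, the genes below are described as higher or lower by their values.

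Replicates differed from each other as much as the genotypes did. WT replicates 1 and 2 were at least 2-fold apart in 2484 of the genes tested and cKO replicates 1 and 2 in 2288, against 2205 to 2424 for the 4 pairs of a WT with a cKO library. Many calls depend on single libraries. Among the 109 named genes at P under 0.05, 24 stayed under it when each of the 4 libraries was left out in turn: Actn1, Asprv1, Cald1, Cpxm2, Ddr2, Fam167a, Fam71a, H60c, Hspb8, Hspg2, Il20ra, Inadl, Krt1, Krt10, Krt17, Lamb1, Ndufv3, Notum, Ppp1r3b, Rora, Skint1, Tgfb2, Tppp and Tppp3. Every other named gene below with P under 0.05 lost it without at least 1 library, most often without WT replicate 1 (61 of the 109) or cKO replicate 2 (55), and less often without cKO replicate 1 (36) or WT replicate 2 (34). Over all genes, 46 were under 0.05 in the full fit and in each of those 4 fits, 27 higher and 19 lower in cKO.

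The label of the cKO libraries was checked on the grainyhead-like genes themselves. Grhl3 was at 109 and 90.2 CPM in WT and at 121 and 103 CPM in cKO, which overlap. Counts are per gene, so the level of a single exon of Grhl3 cannot be read. Its paralogs, Grhl1 and Grhl2, overlapped as well. Grhl1 was at 187 and 144 CPM in WT and at 175 and 218 CPM in cKO. Grhl2 was at 148 and 155 CPM in WT and at 161 and 155 CPM in cKO. The study reports checks of the deletion in its mice, by quantitative PCR inside the floxed region and by GRHL3 staining at the wound front. The genotype is therefore used as the labels give it, without support from the level of Grhl3 RNA in these libraries.

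The keratinocyte identity of the sort was plain in all 4 libraries. Basal markers (7 of 7 tested) summed to 32838 and 46869 CPM in WT and to 47005 and 38215 CPM in cKO, led by Krt14, the keratin of the basal layer, at 12102 and 19489 against 19418 and 15406 CPM. WT replicate 1 was the lowest library in both sums, the groups overlapped, and the median log2 difference of the list was 0.06 (-0.15 without WT replicate 1, -0.08 without cKO replicate 1 and 0.24 without WT replicate 2). Itga6, which encodes the CD49f antigen of the sort, was at 1268 and 1958 CPM in WT and at 1742 and 1318 CPM in cKO. Here the groups overlapped too, with WT replicate 2 and cKO replicate 1 the higher library of each pair.

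The 12 genes with the smallest P among those higher in cKO joined differentiation genes with genes of other roles. Krt10, a keratin of the first suprabasal layers, was at 1458 and 1991 CPM in WT and at 2850 and 3471 CPM in cKO, a difference of 0.87 ± 0.16 (SE; unadjusted P = 6.53e-05, adjusted p = 0.459). Asprv1, the protease that trims filaggrin in the upper epidermis, was at 27.5 and 25.03 CPM in WT and at 60.5 and 47.0 CPM in cKO, a difference of 1.03 ± 0.22 (unadjusted P = 0.000282). In both genes each cKO library stood above each WT library. Tppp and Tppp3 encode proteins that promote tubulin polymerization. Tppp was at 43.9 and 42.8 CPM in WT and at 80.0 and 79.8 CPM in cKO, and Tppp3 at 30.5 and 32.4 against 60.3 and 69.0 CPM, differences of 0.88 ± 0.21 and 1.04 ± 0.23. Replicates lay close together within each genotype for both genes, and the groups did not overlap. Ddr2, a receptor tyrosine kinase for fibrillar collagen, was at 17.5 and 24.5 CPM in WT and at 60.8 and 42.6 CPM in cKO, a difference of 1.30 ± 0.32. Cpxm2, a carboxypeptidase-like secreted protein, was at 21.6 and 38.1 CPM in WT and at 56.4 and 62.5 CPM in cKO. For both, the higher WT library was well under the lower cKO library. Fam71a was at 5.72 and 4.88 CPM in WT and at 18.5 and 11.3 CPM in cKO. Rgcc, a cell cycle regulator that responds to complement, was at 43.0 and 46.4 CPM in WT and at 60.6 and 122 CPM in cKO, where cKO replicate 2 alone was far above the rest (unadjusted P = 0.0808 without it).

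The 12 genes with the smallest P among those lower in cKO included several genes of the cytoskeleton and its anchorage. Cald1, which encodes the actin- and myosin-binding protein caldesmon, was at 110 and 161 CPM in WT and at 49.3 and 35.4 CPM in cKO, a difference of -1.68 ± 0.25 (unadjusted P = 5.19e-06, adjusted p = 0.0729). Nedd9, a docking protein of focal adhesions, was at 186 and 114 CPM in WT and at 70.0 and 93.4 CPM in cKO, a difference of -0.88 ± 0.23 (unadjusted P = 0.00157, and 0.0521 without WT replicate 1). Inadl, a PDZ scaffold of tight junctions and apical polarity now named Patj, was at 125 and 126 CPM in WT and at 67.7 and 87.4 CPM in cKO. Both cKO libraries stood below both WT libraries in all 3 genes. Fam167a was at 183 and 151 CPM in WT and at 107 and 90.9 CPM in cKO. Ppp1r3b, a glycogen-targeting subunit of protein phosphatase, was at 16.4 and 5.79 CPM in WT and at 1.23 and 0.483 CPM in cKO, a difference of -3.68 ± 0.85 (unadjusted P = 0.000511). Prss22, a secreted serine protease of epithelia, was at 28.4 and 3.45 CPM in WT and at 1.71 and 1.52 CPM in cKO. For Prss22 most of the difference rests on WT replicate 1, and without it the difference lost its call (unadjusted P = 0.0902).

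**Figure D1:**
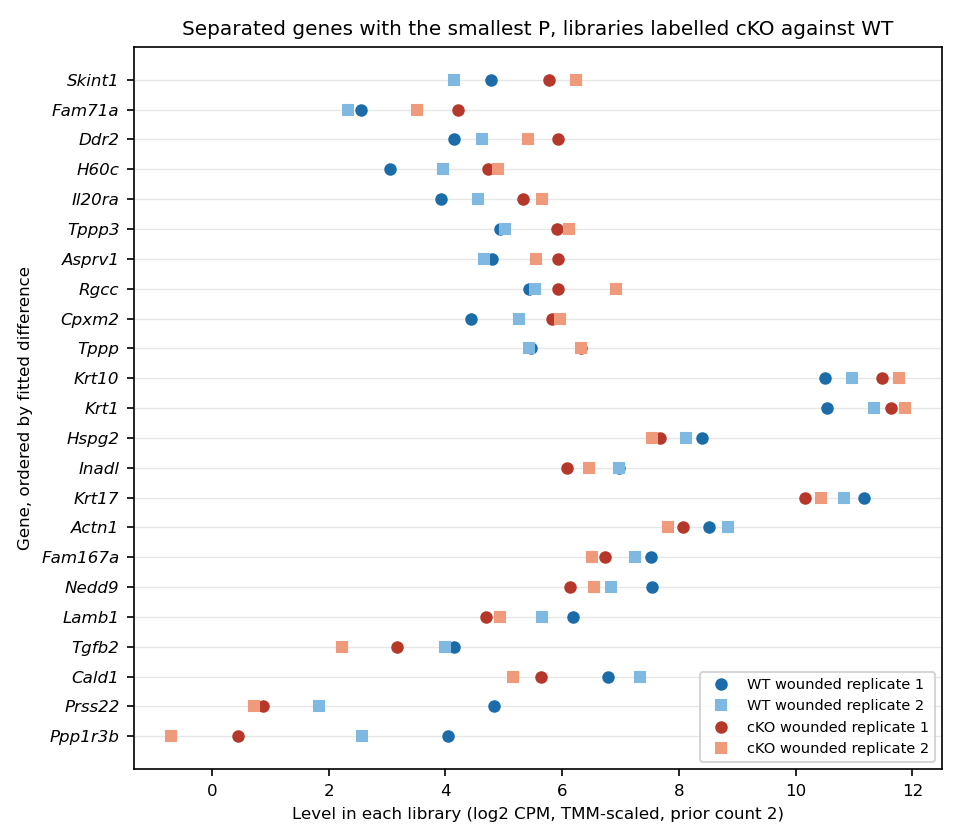
Level in each of the 4 libraries, on the log2 CPM scale, of genes from the 12 higher and the 12 lower in cKO with the smallest P among separated genes of at least 1 mean log2 CPM. Blue points are WT and red points cKO, and in each row both red points lie on 1 side of both blue points, as for Cald1 (110 and 161 against 49.3 and 35.4 CPM).

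Early differentiation genes were nearly all higher. Of 9 tested suprabasal keratins and early differentiation genes, 7 were separated with cKO higher (77.8%) and none lower, 6 had P under 0.05, and the median log2 difference was 0.50 against -0.01 for all genes tested. Their summed level was 4568 and 6154 CPM in WT and 7945 and 9537 CPM in cKO. Krt1, the partner of Krt10 in suprabasal filaments, was at 1486 and 2579 CPM in WT and at 3161 and 3761 CPM in cKO, a difference of 0.77 ± 0.20 (unadjusted P = 0.00177). Krt78 was at 9.95 and 12.3 CPM in WT and at 17.0 and 24.5 CPM in cKO, and Krtdap, a secreted peptide of differentiating keratinocytes, at 57.8 and 97.3 against 126 and 116 CPM. In each of these genes WT replicate 1 was the lowest of the 4 libraries. The list's median was between 0.42 and 0.67 in every setting tried, and 8 of its 9 genes had a positive difference and 1 a negative one. Of its 6 genes at P under 0.05, Krt1 and Krt10 kept it without each library, and Krt78 and Krtdap did not. Over those fits the difference was 0.61 to 1.15 for Krt78 and 0.31 to 1.07 for Krtdap.

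Later steps of cornification were less evenly shifted. Of 35 tested cornified envelope precursors, 5 were separated higher (14.3%), near the share of all genes, and 1 lower (2.86%), with a median of 0.23 that reached -0.004 without cKO replicate 1 and 0.97 without WT replicate 2. Many of these genes had few counts, among them Hrnr, a filaggrin-like protein, at 0 and 0.455 CPM in WT and at 4.72 and 0.760 CPM in cKO (unadjusted P = 0.0391). Ppl, periplakin, the most abundant precursor, was at 838 and 780 CPM in WT and at 947 and 953 CPM in cKO, separated but with P over 0.05. Among 11 tested enzymes of envelope crosslinking and filaggrin processing, Asprv1 was the gene with P under 0.05 that was higher, and Padi3, a peptidylarginine deiminase also found in hair follicles, the one that was lower. Padi3 was at 10.8 and 0.910 CPM in WT and at 0.478 and 0.829 CPM in cKO, so that WT replicate 1 alone was high (unadjusted P = 0.853 without it).

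Barrier lipid genes leaned the same way as the suprabasal keratins. Of 27 tested, 6 were separated higher (22.2%) and 2 lower (7.41%), and 2 had P under 0.05, with a median of 0.18 that was 0.05 without WT replicate 1. Pnpla1, which makes the linoleate-linked acylceramides of the barrier, was at 6.497 and 7.54 CPM in WT and at 12.6 and 15.3 CPM in cKO, a difference of 0.99 ± 0.34 (unadjusted P = 0.0102). Elovl4, the elongase of very long chain fatty acids, was at 56.8 and 65.9 CPM in WT and at 86.8 and 95.2 CPM in cKO, a difference of 0.57 ± 0.19 (unadjusted P = 0.00977). Both were higher in both cKO libraries, and both lost P under 0.05 without WT replicate 1 (0.0578 and 0.0668). Abca12, the lipid transporter that loads lamellar bodies and the most abundant of the list, overlapped at 216 and 217 CPM in WT and 224 and 196 CPM in cKO.

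Of 33 epidermal transcription factors, 4 had P under 0.05 and all 4 were higher in cKO. Rora, a nuclear receptor that promotes keratinocyte differentiation, was at 213 and 242 CPM in WT and at 322 and 340 CPM in cKO, a difference of 0.54 ± 0.16 (unadjusted P = 0.00359). Tfap2c was at 120 and 120 CPM in WT and at 159 and 166 CPM in cKO, and Cebpa, which drives exit from the cell cycle in suprabasal cells, at 142 and 169 against 227 and 196 CPM. All 3 were separated. Klf4, the barrier regulator and the most abundant of the list, was at 1228 and 1079 CPM in WT and at 1752 and 1249 CPM in cKO, where cKO replicate 2 was barely above WT replicate 1. Across the list 6 genes were separated higher (18.2%) and 4 lower (12.1%), close to all genes, and the median of 0.05 turned to -0.008 without cKO replicate 1.

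Desmosome genes leaned higher, and adherens junction genes did not share that lean. Of 15 desmosome genes, 5 were separated higher (33.3%) and 1 lower (6.67%), with Dsg1a and Dsc1, cadherins of differentiating layers, at P under 0.05. Dsg1a was at 359 and 444 CPM in WT and at 566 and 596 CPM in cKO, a difference of 0.53 ± 0.16 (unadjusted P = 0.00383), and Dsc1 at 90.7 and 105 against 141 and 126 CPM. Reads that match more than 1 of the near-identical Dsg1 genes are on no gene, so the level of each is uncertain, and both genes lost P under 0.05 without WT replicate 1 (0.0628 and 0.130). Dsp, desmoplakin, which all desmosomes contain, overlapped at 11379 and 13450 CPM in WT and 13646 and 12443 CPM in cKO, and the list's median of 0.07 turned to -0.03 without cKO replicate 1. Of 14 adherens junction genes none was separated higher and 2 lower (14.3%), both actin-linked members, and the median of -0.03 turned to 0.002 without WT replicate 1 and to 0.05 without cKO replicate 2. Vcl, vinculin, was at 542 and 350 CPM in WT and at 321 and 262 CPM in cKO, and Lima1, an actin-crosslinking partner of alpha-catenin, at 482 and 401 against 347 and 334 CPM. Both lost P under 0.05 without WT replicate 1 (0.264 and 0.257). Cdh1, E-cadherin, the most abundant of the list, overlapped at 1465 and 1126 CPM in WT and 1106 and 1132 CPM in cKO. Among 10 tested repressors of E-cadherin and mesenchymal markers none had P under 0.05, and their most abundant member, Snai2, overlapped.

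Tight and gap junction genes (20 tested) had 3 separated higher and 2 lower, near the shares of all genes. Gjb2, connexin 26, a gap junction protein of activated epidermis, was at 200 and 708 CPM in WT and at 180 and 72.0 CPM in cKO, a difference of -1.85 ± 0.51 (unadjusted P = 0.00224). The WT libraries differed by more than the nearest WT and cKO libraries did, and P was 0.116 without WT replicate 2. Tjp3, a scaffold of tight junctions, was at 16.5 and 8.97 CPM in WT and at 17.2 and 28.0 CPM in cKO, and its groups almost touched.

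Contractile actomyosin genes were separated mostly in 1 direction. Of 27 tested, 11 were separated lower (40.7%) and 1 higher (3.70%), 7 had P under 0.05, all lower, and the median was -0.24 (between -0.33 and -0.13 in every setting tried). Summed, the list was at 8959 and 8713 CPM in WT and at 7791 and 7251 CPM in cKO. Beside Cald1, Actn1, the actin crosslinker alpha-actinin 1 of stress fibres, was at 367 and 457 CPM in WT and at 268 and 225 CPM in cKO, a difference of -0.74 ± 0.17 (unadjusted P = 0.000557). Tpm1, the tropomyosin that lies along the actin filament with caldesmon, was at 334 and 253 CPM in WT and at 185 and 201 CPM in cKO, a difference of -0.60 ± 0.17 (unadjusted P = 0.00322). Both cKO libraries were below both WT libraries in each. Acta2, smooth muscle actin, was far less abundant at 16.4 and 10.01 CPM in WT and 0.752 and 4.42 CPM in cKO. Myh9, the non-muscle myosin heavy chain and the most abundant of the list, was at 3200 and 3041 CPM in WT and at 2672 and 2440 CPM in cKO, a small difference of -0.29 ± 0.13 (unadjusted P = 0.0461) on a high level. Acta2 also counts among the pericyte and smooth muscle markers described further on. Of the 7 genes at P under 0.05, Cald1 and Actn1 kept it without each library, and Tpm1, Acta2 and Myh9 did not. Over those fits the difference was -0.78 to -0.39 for Tpm1 and -0.34 to -0.22 for Myh9.

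Other actin genes moved little. Of 28 actin monomer, nucleation and capping genes 6 were separated lower (21.4%) and 1 higher, none had P under 0.05, and the median of -0.04 turned to 0.02 without WT replicate 2 and to 0.05 without cKO replicate 2. Actg1, cytoplasmic gamma-actin, overlapped at 5171 and 4267 CPM in WT and 4942 and 3885 CPM in cKO. Among 19 leading-edge and actin-bundling genes, 4 were separated lower and 1 higher, and 2 had P under 0.05. Msn, moesin, which ties the cell membrane to actin, was at 438 and 527 CPM in WT and at 395 and 314 CPM in cKO, a difference of -0.45 ± 0.17 (unadjusted P = 0.0193). Fmnl2, a formin of lamellipodia, was at 44.6 and 41.9 CPM in WT and at 34.99 and 19.96 CPM in cKO, with cKO replicate 2 the lowest. Fscn1, the actin bundler fascin, and Pdpn, podoplanin, overlapped in these counts. The study reports the RNA of both as significantly lower in cKO than in WT wounds. For fascin it also reports weaker staining at the cKO wound front, less open chromatin at the gene after wounding, and knockdown experiments in human keratinocytes. Fscn1 was at 110 and 130 CPM in WT and at 134 and 55.6 CPM in cKO, and its difference of -0.34 was -1.10 without cKO replicate 1 and 0.16 without cKO replicate 2. Pdpn was at 13.1 and 49.4 CPM in WT and at 21.3 and 4.01 CPM in cKO (unadjusted P = 0.0526), and its difference of -1.30 was -0.04 without WT replicate 2 (unadjusted P = 0.953), -1.97 without WT replicate 1 (0.00158), -2.95 without cKO replicate 1 (0.00169) and -0.55 without cKO replicate 2 (0.393). Ezr, ezrin, a relative of moesin and more abundant, overlapped at 1013 and 883 CPM in WT and 1121 and 981 CPM in cKO.

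Integrins, which hold migrating cells to the matrix, had 6 of 20 tested subunits separated lower, 1 higher and 13 overlapping. There were 6 with P under 0.05, all lower, and the median was -0.35, which moved to -0.04 without WT replicate 2 and was -0.14 over the 13 subunits with at least 10 counts in each library. The summed level overlapped, at 3377 and 4591 CPM in WT and 4132 and 2934 CPM in cKO. Itgb1, the beta chain shared by most matrix receptors, was at 471 and 661 CPM in WT and at 453 and 315 CPM in cKO, a difference of -0.56 ± 0.20 (unadjusted P = 0.0114). Itgb6, the chain of the wound integrin that activates latent TGF-beta, was at 76.4 and 49.0 CPM in WT and at 47.9 and 33.0 CPM in cKO, and Itgb8, which has the same ligand, at 47.3 and 36.0 against 25.4 and 27.8 CPM. For Itgb1 and Itgb6 the nearest WT and cKO libraries were almost level. Itga5, the fibronectin receptor chain, was at 28.2 and 45.7 CPM in WT and at 26.2 and 15.1 CPM in cKO, also with a narrow gap. Itga8 had 57 counts over the WT libraries, 52 of them in replicate 1, and 0 in cKO, at least 17.2-fold lower against a floor of 3 counts a group, and the list's median was the same with Itga8 at that bound. The 6 genes at P under 0.05 are not among those that kept it without each library. Over those fits the difference was -0.83 to -0.29 for Itgb1 and -0.91 to -0.28 for Itgb6.

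Of 28 tested basement membrane genes, 4 were separated lower (14.3%), near the share of all genes, and 1 higher (3.57%), and 7 had P under 0.05, 6 of them lower. Lamb1, a laminin beta chain, was at 72.8 and 50.1 CPM in WT and at 25.9 and 30.5 CPM in cKO, a difference of -1.12 ± 0.24 (unadjusted P = 0.000271). Hspg2, the heparan sulfate proteoglycan perlecan, was at 336 and 277 CPM in WT and at 205 and 187 CPM in cKO, a difference of -0.65 ± 0.16 (unadjusted P = 0.00115). Both were clearly apart between the groups. Lama1, in contrast, was higher in cKO at 30.4 and 30.7 CPM against 22.2 and 17.9 CPM in WT (unadjusted P = 0.0423). The list's median was -0.11 and turned to 0.17 without WT replicate 1. Of its 6 lower genes at P under 0.05, Lamb1 and Hspg2 kept it without each library and the rest did not. Col17a1, the hemidesmosomal collagen and the most abundant member, overlapped at 4705 and 5904 CPM in WT and 5881 and 5165 CPM in cKO.

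Proteases that clear a path for migrating cells had few calls. Among 18 metalloproteinases and their inhibitors 3 were separated lower and 2 higher, and 1 a direction had P under 0.05. The median was -0.439 (-0.036 without WT replicate 1). Mmp28, a metalloproteinase of keratinocytes, was higher at 26.1 and 23.5 CPM in cKO against 8.52 and 20.6 CPM in WT (unadjusted P = 0.0475). Its difference of 0.77 was 0.27 without WT replicate 1. Timp3, the most abundant, was at 218 and 67.0 CPM in WT and at 85.5 and 110 CPM in cKO, so that both cKO libraries lay between the WT libraries, and its difference of -0.54 turned to 0.55 without WT replicate 1. Of 10 plasminogen system genes 1 was separated, with cKO lower. Of 33 epidermal serine proteases and inhibitors 5 were separated higher and 3 lower. Serpinb12 was among the higher at 0.894 and 1.11 CPM in WT and 7.996 and 2.90 CPM in cKO.

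All 4 wound keratins had a lower fitted level in cKO, but their groups overlapped except for Krt17. Krt17, which marks activated and follicle keratinocytes, was at 2310 and 1821 CPM in WT and at 1141 and 1381 CPM in cKO, a difference of -0.71 ± 0.17 (unadjusted P = 0.000755). Both cKO libraries were below both WT libraries. Krt16, which is induced in wounds with Krt6a and Krt6b, overlapped at 2434 and 3358 CPM in WT and 3004 and 2122 CPM in cKO. Krt6a was at 1473 and 3410 CPM in WT and at 2467 and 972 CPM in cKO, and Krt6b at 232 and 1078 against 671 and 292 CPM, both overlapping. The median of the 4 was -0.48. It turned to 0.16 without WT replicate 2 and to 0.03 without cKO replicate 2, each with 1 gene at P under 0.05, and it was -0.76 without WT replicate 1 and -0.86 without cKO replicate 1, each with 3. Krt6a and Krt6b are named here after their values were seen.

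EGF family ligands at P under 0.05 were all lower in cKO. Areg, amphiregulin, was at 111 and 168 CPM in WT and at 101 and 81.3 CPM in cKO, a difference of -0.62 ± 0.27 (unadjusted P = 0.0359). Epgn, epigen, was at 402 and 325 CPM in WT and at 306 and 261 CPM in cKO, and Nrg1, neuregulin 1, at 15.2 and 20.4 against 10.7 and 4.90 CPM. These 3 ligands were separated, Areg and Epgn by small gaps, and each lost P under 0.05 without at least 1 WT library. Across all 23 tested genes of the list, which adds receptors and feedback genes, 4 were separated higher and 4 lower, and the median was -0.02 (0.07 without WT replicate 1). The feedback phosphatase Dusp6, its most abundant member, overlapped at 410 and 345 CPM in WT and 360 and 283 CPM in cKO.

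TGF-beta family genes (32 tested) had 6 separated lower (18.8%) and 2 higher (6.25%), and the 3 with P under 0.05 were lower. Tgfb2 was at 17.6 and 15.8 CPM in WT and at 8.88 and 4.56 CPM in cKO, a difference of -1.31 ± 0.35 (unadjusted P = 0.00192), and Inhbb, which makes activin B, at 42.5 and 32.4 against 15.9 and 25.5 CPM. Both ligands were lower in both cKO libraries. Thbs1, thrombospondin 1, an activator of latent TGF-beta and the most abundant of the list, overlapped at 5571 and 4500 CPM in WT and 4691 and 4389 CPM in cKO. Of 18 BMP and Id genes 6 were separated higher (33.3%) and 1 lower, and 1 a direction had P under 0.05. Bmp3, which opposes other BMPs, was higher at 24.5 and 15.6 CPM in cKO against 8.82 and 14.95 CPM in WT, and Grem1, a secreted BMP antagonist, lower at 8.47 and 6.77 CPM in cKO against 17.3 and 13.3 CPM in WT.

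Among 39 Wnt genes 5 were separated higher and 3 lower, and the most unequal were secreted regulators with few counts. Notum, an extracellular enzyme that inactivates Wnt proteins, had 0 and 1 counts in WT and 40 and 27 in cKO, a ratio of 74.0 over the groups with a 95% counting interval of 12.8 to 2970 (unadjusted P = 0.00488). Rspo1, an R-spondin that amplifies Wnt signals, had 0 counts in both WT libraries and 2 and 20 in cKO, at least 8.10-fold higher against a floor of 3 counts a group. Both genes were higher in both cKO libraries, Rspo1 mostly in replicate 2. Tcf7l1, a follicle stem cell repressor, was lower at 7.45 and 7.73 CPM in cKO against 18.1 and 8.91 CPM in WT (unadjusted P = 0.0471, and 0.622 without WT replicate 1). In 17 Notch genes Jag1, a Notch ligand, was at 312 and 346 CPM in WT and at 259 and 245 CPM in cKO, a difference of -0.38 ± 0.16 (unadjusted P = 0.0255, and 0.151 without WT replicate 2). Of the 17 tested ephrins and Eph receptors 4 were separated higher and 2 lower, with Ephb1 lower at 0.683 and 0.552 CPM in cKO against 9.72 and 1.24 CPM in WT, again with WT replicate 1 alone high. The Hippo list (24 tested) had no gene with P under 0.05, and Cyr61, the YAP target and its most abundant member, was at 362 and 374 CPM in WT and at 432 and 460 CPM in cKO, separated with unadjusted P = 0.0950.

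Immediate-early transcription factors, which respond within minutes to growth factors and stress, tissue handling included, had 6 of 18 separated higher (33.3%) and none lower. Fos was at 1425 and 1685 CPM in WT and at 2123 and 1905 CPM in cKO, and Fosb at 1443 and 1250 against 2089 and 1501 CPM. Atf3, a stress-induced partner of the AP-1 proteins, was at 1299 and 1315 CPM in WT and at 1795 and 1728 CPM in cKO, a difference of 0.43 ± 0.17 (unadjusted P = 0.0230). Atf3 was the most evenly separated of the 3, and each of them lost P under 0.05 without at least 1 library. Jun, the most abundant, was almost level between WT replicate 1 and cKO replicate 2, at 2587 and 2069 CPM in WT and 2667 and 2610 CPM in cKO. The list's median of 0.07 turned to -0.17 without cKO replicate 1, and how long each sample was handled before lysis was not tested.

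Interleukin-1 family genes were among the lists most often higher. Of 18 tested, 7 were separated higher (38.9%) and 2 lower (11.1%), 4 had P under 0.05 higher and 1 lower, and the median was 0.37 (0.17 to 0.69 in every setting tried). The 4 included soluble antagonists and a decoy receptor. Il1rn, the secreted antagonist of the IL-1 receptor, was at 61.9 and 74.6 CPM in WT and at 94.5 and 98.7 CPM in cKO, a difference of 0.50 ± 0.20 (unadjusted P = 0.0215). Il1r2, the decoy receptor that traps IL-1, was at 18.2 and 15.5 CPM in WT and at 29.9 and 30.2 CPM in cKO, a difference of 0.83 ± 0.30 (unadjusted P = 0.0146). Both cKO libraries were nearly equal in each of these genes and above both WT libraries. Il1f5, the antagonist of the IL-36 receptor, was at 4.65 and 4.10 CPM in WT and at 6.15 and 11.4 CPM in cKO, and Il1f9, the agonist IL-36 gamma, at 4.77 and 13.1 against 22.6 and 17.7 CPM. Il18r1, a chain of the IL-18 receptor, was lower in both cKO libraries at 3.55 and 5.18 CPM against 10.6 and 10.8 CPM in WT. The most abundant member, the alarm cytokine Il33, overlapped at 47.6 and 126 CPM in WT and 81.7 and 96.8 CPM in cKO, and its small difference of 0.04 turned to -0.50 without WT replicate 1. The 4 higher genes are not among those that kept P under 0.05 without each library. Over those fits the difference was 0.37 to 0.65 for Il1rn and 0.74 to 0.95 for Il1r2. It was 0.49 to 1.39 for Il1f5 and 0.62 to 2.08 for Il1f9.

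In the IL-20, gp130 and STAT3 list 5 of 18 genes were separated higher (27.8%) and 1 lower (5.56%), and the 3 with P under 0.05 were receptors. Il20ra, a chain of the receptors through which IL-19, IL-20 and IL-24 act on keratinocytes, was at 15.1 and 23.5 CPM in WT and at 39.9 and 50.2 CPM in cKO, a difference of 1.23 ± 0.27 (unadjusted P = 0.000357). Il22ra2, a soluble protein that traps IL-22, was at 12.5 and 14.2 CPM in WT and at 22.9 and 20.4 CPM in cKO, and Il6ra at 74.1 and 93.2 against 126 and 100 CPM. Each was higher in both cKO libraries, and Il6ra and Il22ra2 lost P under 0.05 without WT replicate 1 (0.239 and 0.0710). Socs3, the STAT3 feedback inhibitor, was at 477 and 521 CPM in WT and at 591 and 596 CPM in cKO, separated with unadjusted P = 0.126.

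Interferon-stimulated genes, many of them antiviral effectors, were the list most often lower. Of 45 tested, 24 were separated lower (53.3%) and 1 higher (2.22%), 11 of them by at least 1.5-fold, 4 had P under 0.05, and the median was -0.72, between -0.78 and -0.25 in every setting tried. Gbp2, an interferon-induced GTPase, was at 30.5 and 42.8 CPM in WT and at 25.4 and 12.2 CPM in cKO, a difference of -0.96 ± 0.36 (unadjusted P = 0.0165). Ifit1, which binds foreign RNA, was at 2.32 and 10.01 CPM in WT and at 0.478 and 0.760 CPM in cKO. WT replicate 2 was the highest library in both. Ifi47 had 36 counts over the WT libraries and 0 in cKO, at least 10.9-fold lower against a floor of 3 counts a group, and Gbp5 had 63 and 1, a ratio of cKO to WT of 0.0175 with a 95% counting interval of 0.000437 to 0.101. The list was thin, with 27 of its 45 genes at 10 or more counts in each of the 4 libraries, and over those 27 there were 12 separated lower and a median of -0.25. Irf1, its most abundant member, overlapped at 154 and 179 CPM in WT and 174 and 170 CPM in cKO, and the summed level of the list was slightly lower in both cKO libraries, at 690 and 804 CPM in WT and 629 and 668 CPM in cKO. The median was the same with the 3 genes at 0 in cKO (Ifi47, Oas2 and Oasl1) set to their bounds. It was -0.609 without WT replicate 1, -0.632 without WT replicate 2, -0.461 without cKO replicate 1 and -0.745 without cKO replicate 2. The 4 genes with P under 0.05 are not among those that kept it without each library.

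Other soluble defence genes had few calls. Of 20 chemokines and alarm cytokines 5 were separated lower and 2 higher, none with P under 0.05, and Cxcl14, the most abundant, was level at 378 and 342 CPM in WT and 357 and 359 CPM in cKO. Of 12 antimicrobial genes 3 were separated higher and none lower. Rnase4, a secreted ribonuclease, was at 58.1 and 61.6 CPM in WT and at 92.1 and 69.8 CPM in cKO (unadjusted P = 0.0395, and 0.309 without cKO replicate 1). Defb6, a beta-defensin, was at 194 and 155 CPM in WT and at 114 and 267 CPM in cKO, so that both WT libraries lay between the cKO libraries, and its difference of 0.12 turned to -0.62 without cKO replicate 2. Among 12 S100 genes 2 were separated higher and 1 lower, none with P under 0.05, and their most abundant member, S100a10, overlapped.

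Genes for keratinocyte surface molecules that engage epidermal gamma-delta T cells stood out among families defined by a shared symbol. Of 234 symbol families with at least 8 tested members, a scan added after the data were seen, the Skint family had the largest share of genes separated higher, 8 of 11 (72.7%), with 1 lower and 2 at P under 0.05. Over the 6 members with at least 10 counts in each wounded library, 3 were separated higher and the median was 0.54. Skint1, which is required for those T cells to mature in the thymus, was at 27.3 and 17.6 CPM in WT and at 54.3 and 75.6 CPM in cKO, a difference of 1.53 ± 0.41 (unadjusted P = 0.00168). H60c, a ligand of the NKG2D receptor on the same T cells, was at 8.17 and 15.4 CPM in WT and at 26.5 and 29.7 CPM in cKO, a difference of 1.25 ± 0.30 (unadjusted P = 0.000804). Both genes were higher in both cKO libraries and kept P under 0.05 without any 1 library. Skint6 had 159 and 15 counts in WT against 205 and 475 in cKO (unadjusted P = 0.00964), and Skint7 had 123 and 117 against 141 and 194, both separated. For several other members the WT level rests mostly on replicate 1. Skint3 had 451 counts in WT replicate 1 and 0 in WT replicate 2, against 506 and 600 in cKO, and Skint4 had 343 and 0 against 417 and 768. Skint9 showed the same zero at 122 and 0 against 149 and 173 counts, as did Skint11 at 54 and 0 against 107 and 58. The unwounded WT library of the same number also had 0 counts of Skint3, Skint4, Skint9 and Skint11, and the other unwounded libraries had 14 to 622. The cause of these zeros was not tested. Without WT replicate 2 the median of the 11 genes fell to 0.62 from 1.49, and without WT replicate 1 it was 3.15. The Skint genes are close copies of one another, so reads that match several of them are on no gene and the value of a single member is uncertain. The genes named here beside Skint1 and H60c were chosen after their values were seen.

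Cytosolic ribosomal proteins were the largest list with 1 direction. Of 80 tested, 57 were separated higher (71.2%), none lower, and 79 had a positive difference. Their median was 0.26, between 0.14 and 0.38 in every setting tried, and 15 had P under 0.05. Summed, they were at 50977 and 53251 CPM in WT and at 56729 and 67344 CPM in cKO, so that cKO replicate 2 was highest. Rpl13, a protein of the large subunit, was at 1031 and 1082 CPM in WT and at 1225 and 1559 CPM in cKO, a difference of 0.40 ± 0.15 (unadjusted P = 0.0190). Rps9, of the small subunit, was at 540 and 662 CPM in WT and at 752 and 918 CPM in cKO, a difference of 0.47 ± 0.17 (unadjusted P = 0.0128). Rpsa, the most abundant, was at 2457 and 2585 CPM in WT and at 2811 and 3382 CPM in cKO. The single differences were small, and the 15 genes are not among those that kept P under 0.05 without each library. The list's median was 0.232 without WT replicate 1 and 0.311 without WT replicate 2. It was 0.379 without cKO replicate 1 and 0.141 without cKO replicate 2. Ribosomal protein genes have many processed pseudogenes, so the level of any 1 of them is uncertain. By symbol, which also takes in genes that are no ribosomal proteins, 30 of 44 Rpl genes were separated higher and none lower, and 24 of 42 Rps genes higher and 3 lower.

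Short transcripts as a class leaned the same way as the ribosomal proteins, in a check added after the data were seen. Among genes other than ribosomal proteins, 22.9% of those with transcripts of up to 500 bases were separated higher and 9.80% lower, and the shares turned to 11.9% and 19.7% above 6000 bases. The median difference was 0.08 up to 1000 bases (1122 genes) and -0.05 above 4000 bases (3379 genes). Without WT replicate 1 these medians were 0.03 and 0.005, without cKO replicate 2 they were 0.008 and -0.05, without WT replicate 2 they were 0.20 and -0.07, and without cKO replicate 1 they were 0.10 and -0.07, so the size of the lean depends on single libraries. Ribosomal protein transcripts have a median length of 775.5 bases. Abundant genes of that size, from 500 to 1000 bases and above 100 CPM, had 8 of 69 separated higher (11.6%) and a median of 0.08, against 57 of 80 and 0.26 for the ribosomal proteins. A length was found for 13533 of the 14045 genes, and the part of transcript length or RNA quality in the differences was not tested.

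**Figure D2:**
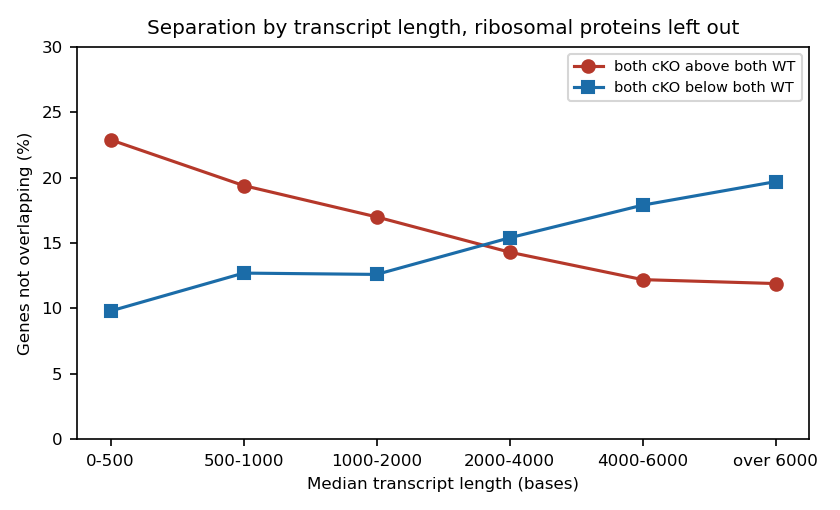
Share of genes (%) with both cKO libraries above both WT libraries (red) or below both (blue), by median transcript length in bases, ribosomal proteins left out. The red share goes from 22.9% in the shortest class to 11.9% in the longest, and the blue share from 9.80% to 19.7%.

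Nuclear genes of the respiratory chain leaned higher in part. Of 76 tested, 19 were separated higher (25%) and 4 lower (5.26%), 4 had P under 0.05, all subunits of complex I, and the median was 0.08, which turned to -0.01 without WT replicate 1. Ndufv3 was at 38.4 and 35.1 CPM in WT and at 58.7 and 57.7 CPM in cKO, a difference of 0.66 ± 0.21 (unadjusted P = 0.00630). Ndufb5 was at 26.8 and 31.7 CPM in WT and at 51.9 and 41.9 CPM in cKO, and Ndufs8 at 31.1 and 25.2 against 38.1 and 45.4 CPM. All 3 were higher in both cKO libraries. Atp5a1, the alpha subunit of ATP synthase and the most abundant of the list, overlapped at 731 and 798 CPM in WT and 810 and 736 CPM in cKO. Genes of the mitochondrial genome are not in the count tables.

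Cell cycle genes were lower in both lists by small amounts, and the summed level of the S phase genes overlapped (1639 and 1833 CPM in WT, 1651 and 1324 CPM in cKO). Of 34 DNA replication and S phase genes 12 were separated lower (35.3%) and 1 higher, with a median of -0.22, and of 34 mitosis genes 12 lower and 2 higher, with a median of -0.20. Cdc45, a subunit of the replicative helicase, was at 19.3 and 20.1 CPM in WT and at 11.5 and 11.1 CPM in cKO, a difference of -0.80 ± 0.35 (unadjusted P = 0.0340). E2f2, a transcription factor of the S phase program, was at 19.3 and 29.1 CPM in WT and at 14.3 and 11.8 CPM in cKO, a difference of -0.89 ± 0.34 (unadjusted P = 0.0187). Cdc45 lost P under 0.05 without any 1 of the 4 libraries (0.0589 to 0.112), and E2f2 without WT replicate 2 (0.170) or cKO replicate 2 (0.112). Mki67, the proliferation marker, was at 1140 and 1227 CPM in WT and at 1049 and 845 CPM in cKO, and Top2a at 413 and 405 against 367 and 266 CPM. For these 2 genes cKO replicate 2 was the lowest library and cKO replicate 1 was close to WT. Without WT replicate 2 the median of the mitosis genes was -0.002 and without cKO replicate 2 it was -0.06, and for S phase genes these medians were -0.09 and -0.11. Of 15 G1 cyclins and cyclin-dependent kinase inhibitors 4 were separated higher and 2 lower, none with P under 0.05, among them Cdkn1b at 30.5 and 33.1 CPM in WT and 36.7 and 46.0 CPM in cKO. Replication-dependent histones (54 tested) had 11 separated lower, 5 higher and a median of 0.002. Their near-identical copies make single values uncertain.

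Endoplasmic reticulum chaperones and unfolded protein response genes were lower in 22 of 24 cases, 10 of them separated (41.7%) and none separated higher. The median was -0.18 and none had P under 0.05. Hspa5, the chaperone BiP and the most abundant, was at 1286 and 972 CPM in WT and at 924 and 890 CPM in cKO, a difference of -0.32 ± 0.16 (unadjusted P = 0.0674). The summed level was 5956 and 5951 CPM in WT and 5497 and 4928 CPM in cKO. Without cKO replicate 2 the median was -0.03, the smallest of any setting tried. Cytosolic heat shock genes (16 tested) were close to the shares of all genes, with 3 separated higher and 2 lower. Hspb8, a small chaperone that serves autophagy, was higher at 105 and 103 CPM in cKO against 72.0 and 53.6 CPM in WT, a difference of 0.72 ± 0.21 (unadjusted P = 0.00338), and Dnajb1 at 428 and 477 against 314 and 381 CPM. Hsp90ab1, the most abundant, was level at 4059 and 4256 CPM in WT and 4235 and 4086 CPM in cKO.

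**Figure D3:**
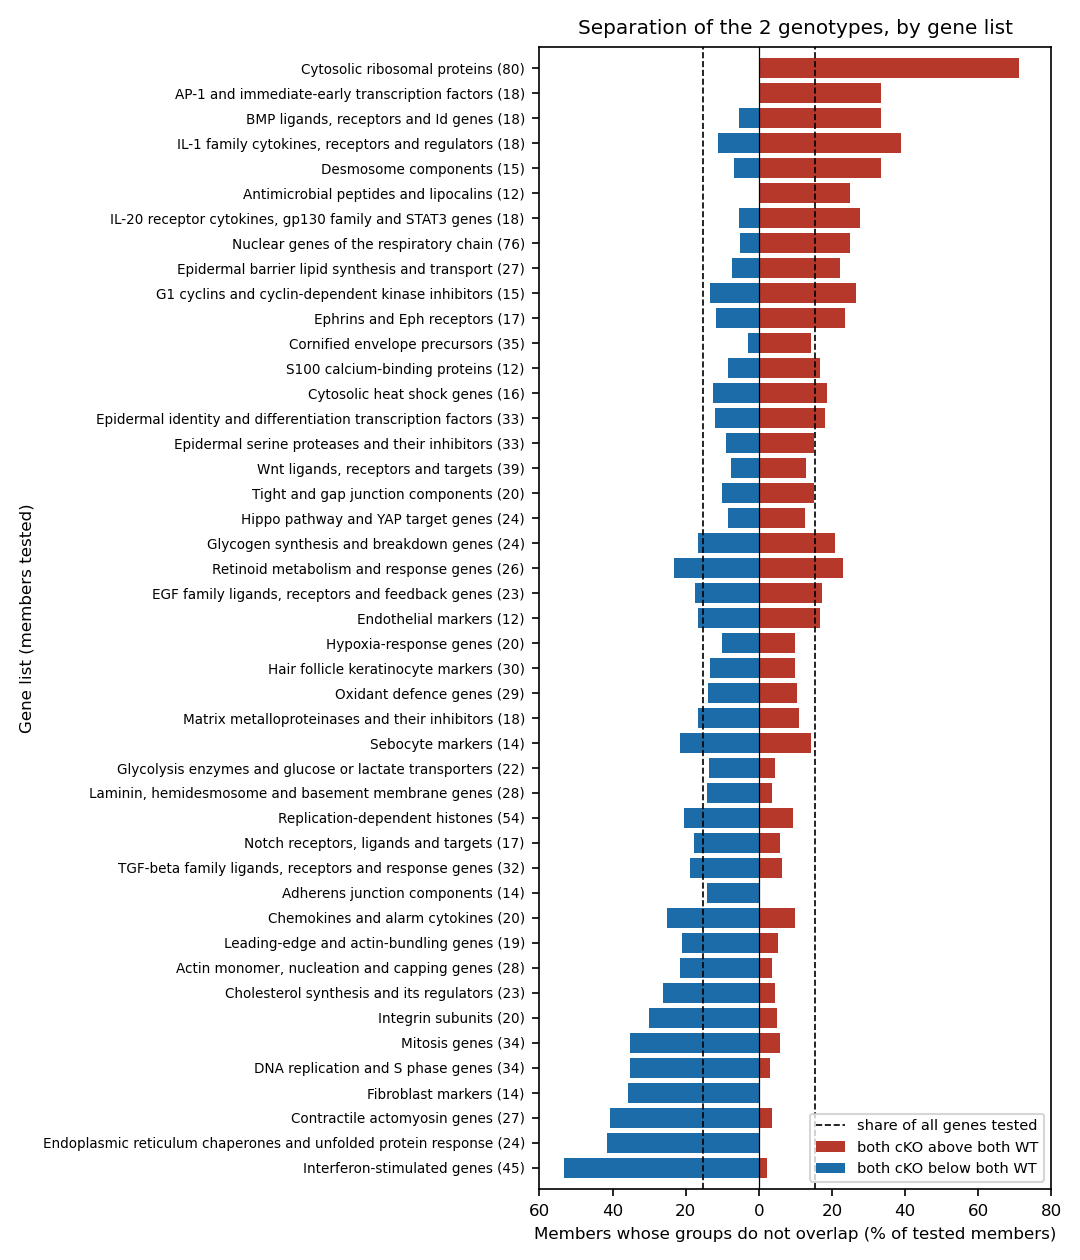
Share of tested members (%) whose groups did not overlap, for gene lists with at least 12 tested members, red for both cKO libraries above both WT libraries and blue for both below. Dashed lines mark the shares of all genes tested, 15.3% higher and 15.2% lower, and ribosomal proteins (71.2% higher) and interferon-stimulated genes (53.3% lower) lie farthest from them.

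Metabolic lists varied in how many members were separated. Of 22 glycolysis genes and transporters 3 were separated lower and 1 higher, and of 20 hypoxia-response genes 2 each way, none with P under 0.05. Pkm, a pyruvate kinase and the most abundant of the glycolysis list, was at 761 and 1218 CPM in WT and at 1205 and 831 CPM in cKO. WT replicate 2 and cKO replicate 1 were both high, and the summed glycolysis list had the same order at 3973 and 6056 against 6017 and 4195 CPM. Fabp5, a fatty acid and retinoid carrier induced in wounds, had that order as well, at 694 and 1772 CPM in WT and 1496 and 1105 CPM in cKO. Of 23 cholesterol genes 6 were separated lower (26.1%) and 1 higher (4.35%), with a median of -0.16 that was -0.03 without WT replicate 1 and -0.36 without WT replicate 2. Lss, the enzyme that closes the sterol rings, was at 59.1 and 37.6 CPM in WT and at 36.1 and 29.8 CPM in cKO (unadjusted P = 0.0378, and 0.499 without WT replicate 1). Of 24 glycogen genes 5 were separated higher (20.8%) and 4 lower (16.7%), among them Ppp1r3b and Stbd1, a glycogen-binding protein, both lower, with Stbd1 at 10.97 and 5.66 CPM in WT and 3.62 and 3.18 CPM in cKO. Of 26 retinoid genes 6 were separated each way (23.1% higher and 23.1% lower). Crabp2, an intracellular carrier of retinoic acid, was at 28.6 and 43.8 CPM in WT and at 21.1 and 26.8 CPM in cKO. It was lower in both cKO libraries and lost P under 0.05 without WT replicate 2 (0.461) or cKO replicate 1 (0.244). In the 29 oxidant defence genes, Gclc and Slc7a11, which supply glutathione synthesis, were lower in both cKO libraries. Gclc was at 59.3 and 40.6 CPM in WT and at 28.2 and 34.2 CPM in cKO, and Slc7a11, the cystine transporter, at 17.0 and 6.63 against 5.47 and 1.66 CPM, each with WT replicate 1 highest and without a call when it was left out (unadjusted P = 0.186 and 0.164).

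Lower follicle genes rest mostly on WT replicate 1. Of 30 tested hair follicle markers 4 were separated lower and 3 higher, 5 had P under 0.05, all lower, and the median of -0.31 turned to 0.08 without WT replicate 1, where none had P under 0.05. Their summed level was 8488 and 7168 CPM in WT and 7323 and 7706 CPM in cKO. Postn, periostin, a matrix protein of follicle and wound, was at 1138 and 1042 CPM in WT and at 818 and 805 CPM in cKO, a difference of -0.43 ± 0.15 (unadjusted P = 0.0101, and 0.0686 without WT replicate 1). Both cKO libraries were below both WT libraries. Krt15, the most abundant of the list and also a basal keratin, was at 2173 and 2015 CPM in WT and at 2362 and 2482 CPM in cKO, so the order was the other way round. Krt25, a keratin of the inner root sheath, had all its 176 counts in WT replicate 1. Of 14 sebocyte markers 3 were separated lower and 2 higher. Plin2, which coats lipid droplets, was at 134 and 156 CPM in WT and at 85.8 and 110 CPM in cKO, a difference of -0.57 ± 0.18 (unadjusted P = 0.00676, and 0.0616 without WT replicate 2), and Scd1, the most abundant, overlapped.

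Markers of other cell types ranged widely in level, and many were at 0. Among 21 leukocyte genes that were listed, 10 had 0 counts in all 4 libraries, among them Cd3e, Cd3g, Cd4 and Cd8a, and the 10 tested genes summed to 24.0 and 66.4 CPM in WT and 28.7 and 27.1 CPM in cKO, led by Cd74. WT replicate 2 was highest, and the median of -0.68 turned to 0.39 without it. Erythroid genes other than Alas2 had no counts. Endothelial markers (12 tested) summed to 44.5 and 25.4 CPM in WT and 19.1 and 27.1 CPM in cKO, led by Vwf, with Flt1 lower at 2.39 and 0.967 CPM in cKO against 5.42 and 6.83 CPM in WT, and their median of -0.85 turned to 0.35 without WT replicate 1. Fibroblast markers (14 tested) were separated lower in 5 genes and higher in none, with sums of 270 and 304 CPM in WT and 281 and 245 CPM in cKO led by Fbln1. Their median was -0.338, between -0.34 and -0.096 in every setting tried, and -0.296 without WT replicate 1. Col5a2, a fibrillar collagen chain, was at 35.5 and 12.2 CPM in WT and at 11.003 and 11.3 CPM in cKO, high in WT replicate 1 alone. Pericyte and smooth muscle markers (7 tested) summed to 256 and 219 CPM in WT and 218 and 174 CPM in cKO, led by Notch3, which keratinocytes also express, while the defining markers Rgs5 and Abcc9 were at 0 or 1 count in every library. The median of the 7 was -0.67 (-0.04 without WT replicate 1) and 3 had P under 0.05, all lower (0 without WT replicate 1). Acta2 and Myh11 belong to this list as well as to the actomyosin list. Langerhans markers summed to 435 and 340 CPM in WT and 230 and 285 CPM in cKO, most of it Epcam, which follicle keratinocytes also express, at 397 and 267 against 194 and 249 CPM (unadjusted P = 0.0176). The defining marker Cd207 had 0 and 6 counts in WT and 0 and 8 in cKO. Melanocyte (7 tested), Merkel cell and Schwann cell (7) and muscle and fat (8) markers summed to at most 74.97 CPM in any library. The part of these cells in the differences above was not tested.

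The chromosome that carries Grhl3 had the largest share of genes with P under 0.05, in a check of position added after the data were seen. Chromosome 4 had 54 of 896 tested genes (6.03%), and the other autosomes and X had 2.64% to 5.59%. Within 10 megabases either side of Grhl3 (chr4:135541887-135573632, GRCm38) it was 30 of 247 genes (12.1%), 10 higher and 20 lower, within 5 megabases 15 of 134 (11.2%), and more than 20 megabases away 16 of 428 (3.74%). All genes had 4.04% in the same fit. The excess within 10 megabases over all genes was smaller in each fit without 1 library, so its size depends on single libraries. Hspg2, E2f2 and Padi3 of the lists above lie there. Zfp46, a zinc finger gene of that region picked for its small P after the values were seen, was at 45.4 and 43.2 CPM in WT and at 86.3 and 64.6 CPM in cKO. The share of separated genes there was nearer to that of all genes, with 17.4% higher and 17.8% lower. The part of strain background flanking the deleted allele was not tested.

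Promoters were searched for words that grainyhead-like proteins bind, AACCGGTT and the words with a changed middle, AACCAGTT or AACTGGTT and AACAGGTT or AACCTGTT, on both strands. Windows from RefSeq (build GRCm38.p6, 250 bases before to 50 after a start) were at hand for 11144 of the 14045 tested genes. Of genes both separated and at P under 0.05, they covered 200 of the 259 lower and 230 of the 265 higher. Coverage was under 80% for all genes and for the lower genes, so a comparison of shares between the groups of genes would be void. Of all 11144 genes with a window 216 (1.94%) held a word. The windows of named genes were not all listed, so whether other named genes held a word was not established. Il1rn, a named gene that was separated with P under 0.05, held 1 copy of a word with CA in its middle, 164 bases before the start. Its window, chr2:24336610-24336909 on the plus strand, is printed because that gene leads the interleukin-1 antagonists above, with the word in capitals. The wounded open-chromatin lists, 1 library per genotype, both had a peak over it, with a fold enrichment of 5.48 in WT and 5.04 in cKO. A match is a description of the letters and no sign of binding.
Il1rn promoter: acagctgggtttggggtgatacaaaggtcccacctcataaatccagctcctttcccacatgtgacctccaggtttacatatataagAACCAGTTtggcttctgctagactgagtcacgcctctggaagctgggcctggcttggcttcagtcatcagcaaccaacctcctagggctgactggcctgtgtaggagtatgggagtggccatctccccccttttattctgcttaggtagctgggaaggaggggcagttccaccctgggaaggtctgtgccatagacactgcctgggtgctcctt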

How the data were processed

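RNA-seq count tables of 7 libraries and open-chromatin (ATAC-seq) peak lists of 4 libraries, 1 per condition, were available. The comparison used the 2 WT wounded and 2 cKO wounded RNA-seq libraries. The other 3 RNA-seq libraries entered the expression filter, the scaling and the estimate of the spread. The unwounded cKO library, alone in its group, adds no spread of its own. The deposited tables hold read counts per gene for 24421 genes on mm10, with the class rows of a read counter. The authors name FastQC and kallisto, and which step made the counts is not stated. The deposited peak lists give a score, a fold enrichment (a ratio) and -log10 p per peak as the authors' peak caller wrote them. Of all reads in the wounded libraries, 4.16% to 4.75% were counted as not unique and 1.36% to 1.45% as ambiguous. These reads are on no gene, so near-identical genes are undercounted. Intervals and floors (3 counts over a group) cover counting error only.

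Groups came from the labels. edgeR 4.0.16 (R 4.3.3, limma 3.58.1) filtered genes by expression per group, scaled libraries by trimmed mean of M values (TMM) and fitted the 4 groups together, and the contrast was cKO wounded minus WT wounded by the two-sided quasi-likelihood test with Benjamini-Hochberg adjustment over 14045 genes. The SE is the log2 difference over the square root of F. The thresholds were an unadjusted P of 0.05 as in the study, and an adjusted p of 0.05. Log2 CPM used a prior count of 2, and groups were called separated when both libraries of 1 lay above both of the other. The smallest exact permutation p of 2 against 2 is 0.333, so single genes were not tested that way. The method was tested on simulated data.

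Named genes were the 12 a direction with the smallest P among separated genes with a mean log2 CPM of at least 1 that are not predicted genes, up to 4 separated genes a direction per list with P under 0.05, the gene with the smallest P in a list without such a gene, the most abundant gene of each list, the grainyhead-like genes and genes the study names. The 61 gene lists and the choice of libraries were made with earlier results of these data known. Transcript length, symbol families, position near Grhl3 and genes at 0 in single libraries were described after the data were seen. Promoter windows were searched for exact words, as a description. Alternatives were DESeq2 1.42.0 with its size factors, RLE scaling, the likelihood ratio and exact tests of edgeR, no filter, at least 10 counts in each wounded library, the 4 wounded libraries alone, no unwounded cKO library, a replicate block, counts thinned to the smallest library, predicted genes left out, and each wounded library left out in turn, where the lone library of a group is assumed to vary like the others. Tables and figures used Python 3.11.15, numpy 2.4.6, pandas 2.3.3 and matplotlib 3.10.9. Some named genes and 1 list are not reported here.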

Additional observations from a re-analysis of the deposited data

How the results depend on the processing

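Of the 109 named genes at an unadjusted P under 0.05, 84 kept direction and call in every alternative other than leaving out a library, and none of the 109 reversed in any setting. RLE scaling lost 0 of the calls, thinning 2, DESeq2 10 and the exact test 14. Numbers of genes past a threshold moved by over 1.5 times as follows. DESeq2 gave 3 genes at an adjusted p under 0.05, and the likelihood ratio test, the exact test and the 4 wounded libraries alone gave 1 each. Without an expression filter there were 51. The likelihood ratio test gave 873 genes at an unadjusted P under 0.05, 416 higher and 457 lower. With at least 10 counts in each wounded library, 110 genes were separated by 1.5-fold higher and 109 lower. The cause of these differences was not tested, apart from the fewer genes the last leaves.

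In leave-one-out fits the number of genes with an unadjusted P under 0.05 ran from 433 to 864, 190 to 460 higher and 243 to 404 lower, and 0 to 24 at an adjusted p under 0.05. With 1 library in a group, separation is easier to reach, and 4303 to 4834 genes were higher and 4287 to 4706 lower, 763 to 1139 and 845 to 1120 of them by 1.5-fold. Of the 109 calls, 24 held without each library in turn. Opposite directions, each with P under 0.05, were seen for Defb6 (0.62 without cKO replicate 1, -0.62 without replicate 2), Il33 (-0.50 without WT replicate 1, 0.92 without replicate 2) and Timp3 (0.55 without WT replicate 1, -1.14 without replicate 2). The cause was not tested. A replicate block gave 596 genes at an unadjusted P under 0.05. In the wounded libraries, replicate differences in WT and cKO did not correlate over genes (r = -0.0386). A correlation over all genes cannot decide whether the numbers pair WT with cKO wounded libraries, since shared differences in some genes could cancel in it. WT libraries of the same number, unwounded and wounded, did share genes with at most 1 count (below), and the fit treats them as separate samples. The 4 wounded libraries alone gave 560 genes at that threshold. The number of the unwounded cKO library, which the block uses, is in doubt, since its labels disagree.

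The comparison has 2 libraries a group, whose independence is not stated, and the level of Grhl3 RNA did not separate the labels. One count is 0.0601 to 0.0700 CPM before trimmed-mean scaling, so genes with few counts carry wide intervals, and lists of such genes rest on single libraries. Lists were described by counts and medians without a test of the list. Levels are shares of each library, so a difference in total RNA per cell would not show.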

Other observations

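Some genes had at most 1 count in the same libraries across treatments. Skint3, Skint4, Skint9 and Park2 did so in both WT libraries of replicate 2, unwounded and wounded, and in no other library. Skint11 did so as well, with 14 or more counts in each other library. Ccnb1ip1, Gm6756 and Rprl3 did so in both WT libraries of replicate 1 and in the unwounded cKO library. In the unwounded cKO library alone, 20 genes had at most 1 count, among them Ddx3y, Eif2s3y, Kdm5d and Uty of the Y chromosome. Each of the 20 had at least 15 counts in every other RNA-seq library. The sex of the mice was not tested. These genes were chosen after their values were seen.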
